A study of Procambarus virginalis with 6 samples.

Results

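A small group of circulating hemocytes of the marbled crayfish, *Procambarus virginalis*, was marked by 2 transcripts, WNGS01092210.1242857 and WNGS01092210.1271499. A cell was taken as positive for the pair if these 2 features together had at least 2 UMIs (unique molecular identifiers, each marking 1 captured transcript) and at least 0.5% of the UMIs of the cell. In addition, 5 features that mark another hemocyte cluster had to stay under 1% together. Of 11521 cells with 100 to 2000 features in 6 libraries, 193 were positive, and 189 of them came from the first control animal. The pair and its thresholds had been chosen from these same counts, so the levels of the 7 features of the rule describe the selection and support nothing else.

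The study asked how a knockdown of *Dnmt1*, the maintenance DNA methyltransferase, affects the hemocytes of this all-female, parthenogenetic and clonal species. Control animals (Ctrl1, Ctrl2 and Ctrl3) carried the genotype label Control and had received dsRNA against GFP, and knockdown animals (KD1, KD2 and KD3) had received dsRNA against *Dnmt1* by the same route. Hemolymph was drawn 28 dpi from all 6 animals, each animal gave 1 library on the 10X Genomics droplet platform. The study as a whole used females aged 1 to 3 years, and the labels give no age for single animals. RNA interference lowers a transcript without deleting its gene, and the level of *Dnmt1* was not analysed here, as the features come without gene names.

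Crustacean hemocytes are the circulating immune cells and arise in the hematopoietic tissue. Granular and semigranular cells store the antimicrobial proteins and the enzymes of melanisation that they release on infection, whereas prohemocytes are immature cells from which other hemocytes form. The study named its smallest control population circulating prohemocytes (CPHs). That name could not be checked here, because it rests on gene names, and a pair of unnamed features is too few for a cell type name. The cells are therefore called pair-positive below. The features are printed as identifiers without roles, and no sequence is shown for them.

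The 6 libraries differed in size and depth. They held 622 to 5318 kept cells, with a median of 223 to 1258 UMIs per cell. Ctrl1 had the most cells and a shallow median of 281 UMIs. Cell barcodes were shared between Ctrl2, Ctrl3, KD1 and KD2, with 113 barcodes common to Ctrl3 and KD2 and 110 common to KD1 and KD2, whereas KD3 shared 1 and the barcodes of Ctrl1 were all its own. None of the 193 pair-positive cells lay on a shared barcode, and their numbers were the same after shared barcodes had been left out of the library with fewer UMIs. Because Ctrl1 stands apart in cell number and pair-positive cells at once, the comparisons between groups are given with and without it. In barcodes KD3 was close to Ctrl1, and differences within Ctrl2, Ctrl3, KD1 and KD2 alone are given in the last section.

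Pair-positive cells were almost confined to Ctrl1 under this rule. Ctrl1 had 189 of 5318 cells, or 3.55% (95% interval 3.07% to 4.09% by the exact Clopper-Pearson method). Like all intervals on single libraries here, it covers counting error only. Ctrl2 had 0 of 1196 cells and Ctrl3 had 0 of 622 cells, which allows shares of up to 0.251% and 0.482% (3 cells of the total). KD1 had 2 of 881 cells, or 0.227% (0.0275% to 0.818%). KD2 had 0 of 635 cells, which allows up to 0.472%. KD3 had 2 of 2869 cells, or 0.0697% (0.00844% to 0.252%). The interval of Ctrl1 lay above those of all 5 other libraries. As the pair and its thresholds had been chosen from these counts, this order describes the selection.

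**Figure D1:**
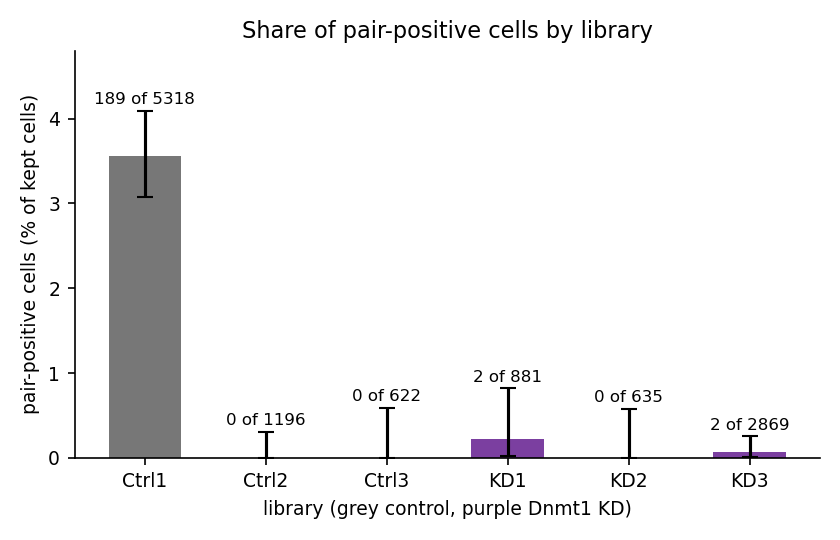
Pair-positive cells as a percentage of the kept cells of each library, with the counts above the bars and exact (Clopper-Pearson) 95% intervals for counting error only. Ctrl1 stands at 3.55% (189 of 5318) and the other 5 libraries at 0% to 0.227%.

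The share of these cells is given by group without a test, since the pair had been chosen from these counts. The control mean was 1.18% ± 2.05 and the KD mean 0.0989% ± 0.116 (SD over 3 animals each). The difference of -1.09 percentage points was smaller than the spread between control animals. Without Ctrl1 the difference was 0.0989 percentage points, with the KD animals above the controls. With every cell thinned to 150 UMIs, Ctrl1, Ctrl2 and Ctrl3 had shares of 2.48%, 0.0836% and 0.322%, KD1 and KD2 had 0% and KD3 had 0.0697%. Every control then lay above every KD animal, but apart from Ctrl1 this order rested on 1 cell in Ctrl2, 2 cells in Ctrl3 and 2 cells in KD3.

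The minimum share of 0.5% is a different demand at different depths. At the median depth of a library it asks for 2 UMIs of the pair in Ctrl1 and KD2, 3 in KD3, 4 in Ctrl3, 6 in Ctrl2 and 7 in KD1. With at least 2 UMIs and no minimum share, there were 197 such cells in Ctrl1 (3.70%), and Ctrl2 and Ctrl3 had 18 (1.51%) and 5 (0.804%). KD1 had 16 (1.82%), KD2 had 6 (0.945%) and KD3 had 13 (0.453%), so the lead of Ctrl1 narrowed. With the minimum raised to 1%, Ctrl1 kept 149 cells and the other 5 libraries had none.

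The 2 features of the pair were found in different proportions from library to library. WNGS01092210.1242857 had 966 UMIs over all kept cells of Ctrl1. Ctrl2 and Ctrl3 had 106 and 44 UMIs, and the KD libraries had 95, 32 and 98. It was thus present in every library, at 5.34 UMIs per 10000 in Ctrl1 and 0.406 to 1.70 elsewhere. WNGS01092210.1271499 had 351 UMIs in Ctrl1 and none in either other control. The KD libraries, in order, had 5, 1 and 3 UMIs. Its level was 1.94 UMIs per 10000 in Ctrl1, and the 0 UMIs of Ctrl2 and Ctrl3 allow at most 0.0169 and 0.05. As a share of the UMIs of the pair, it made up 26.7% in Ctrl1 (exact 95% interval 24.3% to 29.1%), 5% in KD1 (1.64% to 11.3%), 3.03% in KD2 (0.0767% to 15.8%) and 2.97% in KD3 (0.617% to 8.44%). In Ctrl2 and Ctrl3 the 0 UMIs allow a share of up to 2.83% and 6.82%. The proportion in Ctrl1 lay above the intervals of all the other libraries, which cover counting error only. Both features had been chosen from these counts, so the proportion describes the selection.

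Another feature on the same assembly sequence, WNGS01092210.1271482, was found mostly in the same cells, although the rule did not use it. It had 68 UMIs in Ctrl1, 2 in Ctrl2 and 0 in each of the other 4 libraries. In Ctrl1 it was found in 51 cells, and 43 of these were pair-positive. It was present in 22.8% of the pair-positive cells and in 0.156% of the other Ctrl1 cells. Of the 43 positive cells, 34 also had WNGS01092210.1271499. Its identifier number is close to that of WNGS01092210.1271499, but the tables give no coordinates, and reads shared between closely related features cannot be told apart from separate transcripts.

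**Figure D2:**
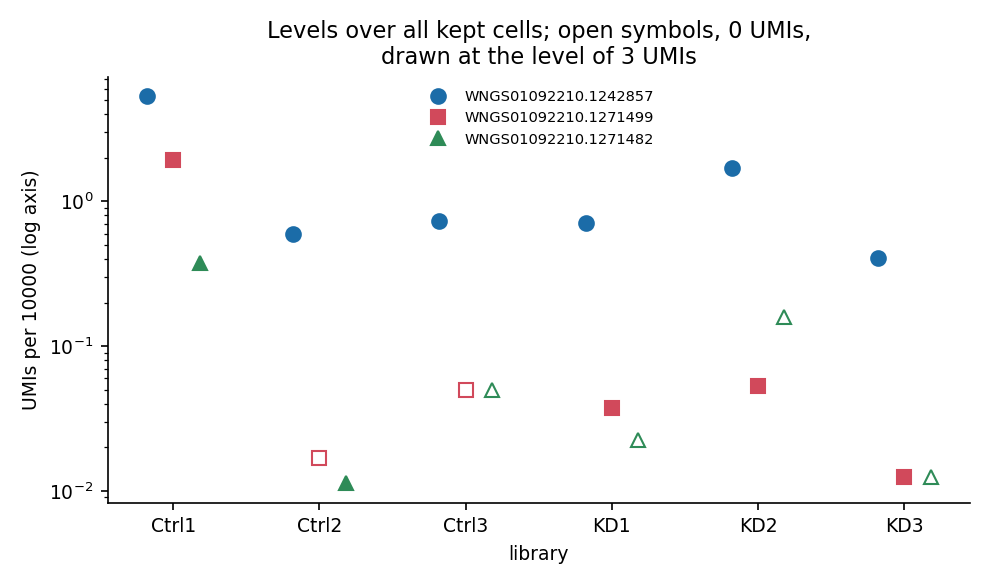
UMIs per 10000 (log axis) over all kept cells of each library for the 2 features of the pair and for WNGS01092210.1271482, where open symbols mark 0 UMIs and are drawn at the level that 3 UMIs would give. WNGS01092210.1242857 was found in all 6 libraries, whereas the other features had 351 and 68 UMIs in Ctrl1 and at most 5 and 2 in any other library.

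Few other features of the assembly sequence were common in the positive cells. Of the 1434 features counted on WNGS01092210, 120 had a UMI in a pair-positive cell of Ctrl1, and 5 were found in at least 10% of these cells. Besides the 3 features above these were WNGS01092210.1257801 and WNGS01092210.1251734_1_covsplit. WNGS01092210.1257801 was at 60.2 UMIs per 10000 in pair-positive cells and 73.0 in the other Ctrl1 cells. It was found in every library, from 20.8 per 10000 in Ctrl2 to 201 in KD3, in an order unlike that of the pair. WNGS01092210.1251734_1_covsplit is described with the granular list below.

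The pair was spread over the cells of Ctrl1 without a gap at the thresholds, and its values there describe the rule. Of the Ctrl1 cells, 4947 had 0 UMIs of the pair and 170 had 1 UMI. Among the 189 positive cells, 148 held both features, 36 held only WNGS01092210.1242857 and 5 held only WNGS01092210.1271499. The pair took a median of 1.62% of the UMIs of a positive cell (quartiles 1.10% and 2.33%, highest 4.75%). WNGS01092210.1242857 reached 19 UMIs in 1 cell and WNGS01092210.1271499 reached 13. These cells held 85.0% of all UMIs of the pair in Ctrl1. There were 28 positive cells with exactly 2 UMIs, and 32 had 10 or more. Just inside the minimum share lay cells at 0.531%, 0.546% and 0.563%, and just outside lay cells at 0.468%, 0.464% and 0.459%. A total of 9 cells with 2 or more UMIs missed the minimum share, and 3 cells past both minima exceeded the limit on the 5 excluded features.

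**Figure D3:**
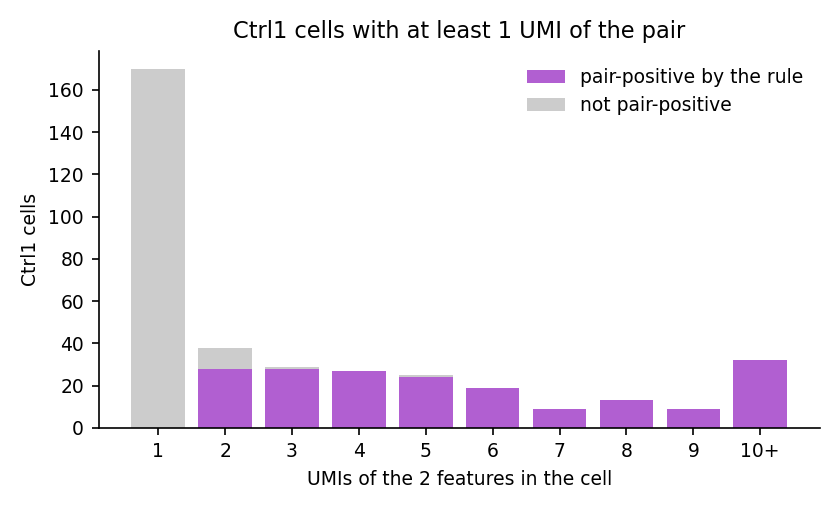
Ctrl1 cells with at least 1 UMI of the pair (vertical axis), by their number of such UMIs (horizontal axis), with pair-positive cells in purple and other cells in grey. The 170 cells with 1 UMI are all outside the rule, and all 32 cells with 10 or more UMIs are inside it.

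Single UMIs of the pair were also found in the rest of Ctrl1, and whether free RNA in the droplets added them was not tested. Clustering of Ctrl1 at the settings of the study gave 4 clusters, numbered 0 to 3 by size. Their sizes were not those of the study, and cluster 2, with 448 cells, was larger than its granular population. In cluster 0, without its positive cells, 1.76% of 4082 cells had a UMI of the pair (median depth 275.5 UMIs). The share was 2.53% of 553 cells in cluster 1 (median 207 UMIs) and 12.8% of 446 cells in the deeper cluster 2 (median 739 UMIs). The positive cells had a median depth of 308 UMIs.

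Cluster 3 and the positive cells were largely the same cells. Of the 189, 183 fell in cluster 3, while clusters 0, 1 and 2 held 4, 0 and 2. Cluster 3 had 231 cells, of which 79.2% were positive, and 81.3% of its 48 other cells had at least 1 UMI of the pair. The cluster depended on the 7 features of the rule. With these left out and resolution 0.1, cluster 3 was not formed and 184 of the positive cells joined the largest cluster of 4481 cells. At resolution 0.2, 150 of them gathered in a cluster of 748 cells, and at resolution 0.5, 136 gathered in a cluster of 190 cells, of which they made up 71.6%. With WNGS01092210.1271482 and WNGS01092210.1243118 left out as well, 128 of the positive cells made up 70.7% of a cluster of 181. The rest of the profile thus still placed most of these cells together, at a finer resolution than the study used. The resolutions of 0.2 and 0.5 without the rule features were chosen after the first result had been seen.

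Depth differed little between the positive cells and the rest of Ctrl1. They had 177 to 1044 UMIs, with a median of 308 against 280 in the other cells, and a median of 137 features against 132. Of the positive cells, 15 (7.94%) were among the 528 deepest Ctrl1 cells, which had more than 489 UMIs, and 0 were among the 54 deepest. Thinned to 150 UMIs, they had a median of 83 features (quartiles 77 and 87) against 87 (75 and 96) in the other cells, of which 40 were too shallow and were left out. The most abundant feature of a cell took 18% of its thinned UMIs in the positive cells (median) and 12.7% in the others. The positive cells therefore had a profile of somewhat fewer features with more weight on the first. With 1 library these are descriptions without a test.

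The other features of the positive cells were ranked in Ctrl1 by the log2 ratio of their level to that in all other Ctrl1 cells. Outside the rule, the 20 with the highest ratio among features found in at least 25% of the positive cells are called companions here, and the choice fixes their direction. Of 140 features found in at least 25% of the cells on either side, 10 were at least 2-fold higher in the positive cells (7.14%) and 12 were at least 2-fold lower (8.57%). The first 10 companions are the 10 higher ones. No p-value is given, since cells of 1 animal are not replicates.

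A trio of companions led the others by a wide margin. WNGS01042707.854656_0_covsplit was at 41.2 UMIs per 10000 in the positive cells and 8.14 in the other Ctrl1 cells, a log2 ratio of 2.34 (95% interval 2.14 to 2.53, counting error only), and was found in 64.6% and 23.2% of the cells. WNGS01145354.1725344_1_covsplit was at 36.1 and 7.36 per 10000, a log2 ratio of 2.30 (2.08 to 2.50), and was found in 67.2% and 21.9% of the cells. WNGS01111181.1434873, the most abundant of the trio, was at 250.0 and 51.5 per 10000, a log2 ratio of 2.28 (2.20 to 2.36), and was found in 98.9% and 79.4% of the cells. In single positive cells WNGS01111181.1434873 took a median of 2.39% of the UMIs (quartiles 1.65% and 3.35%), against 0.476% (0.255% and 0.826%) in cluster 0. The upper quartile of cluster 0 thus lay below the lower quartile of the positive cells.

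Single cells often held more than 1 feature of the trio, as features with a UMI in so many of the cells do. Of the 189 positive cells, 90 had all 3 features, 67 had 2, 32 had 1 and 0 had none. In cluster 0, at a slightly lower median depth, 3.99% of the cells had all 3 and 13.8% had none. At least 2 of the trio were found in 83.1% of the positive cells and in 32.6% of all other Ctrl1 cells. The trio was picked for its level in the positive cells, so these shares are descriptions.

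The remaining companions had smaller ratios. WNGS01164858.2237714_2_covsplit, WNGS01169217.2609422_0_covsplit and WNGS01160430.1872578_0_covsplit had log2 ratios of 1.71, 1.35 and 1.32. WNGS01003388.242686_0_covsplit, WNGS01164858.2246007_2_covsplit and WNGS01005680.411199_4_covsplit had 1.15, 1.06 and 1.06, and the last of the 20, WNGS01163555.2049151_3_covsplit, had 0.58. Among them was the most abundant feature of the positive cells, WNGS01169498.2636754_1_covsplit, at 1781 UMIs per 10000 against 808 in the other cells (log2 ratio 1.14). It was found in every positive cell, where it took a median of 17.2% of the UMIs (quartiles 14.8% and 21.8%), against 6.52% (3.03% and 16.1%) in cluster 0. Some cells of cluster 0 reached 41.4%, close to the highest positive cell at 41.6%, so this feature overlapped widely between the 2 populations.

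The companions were also set against each cluster of Ctrl1. Against cluster 0, all 20 companions were higher in the positive cells, 7 of them at least 2-fold, with a median log2 ratio of 0.78. Against cluster 2, all 20 were at least 2-fold higher, with a median of 2.38. Against cluster 1, 12 of 20 were higher and 8 at least 2-fold, with a median of 0.30. WNGS01169217.2609422_0_covsplit, for example, was at 37.8 UMIs per 10000 in the positive cells, 12.2 in cluster 0 and 69.0 in cluster 1. The trio was at least 2-fold above each of the 3 clusters. WNGS01042707.854656_0_covsplit, for one, was at 8.84, 9.31 and 5.33 per 10000 in clusters 0, 1 and 2.

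**Figure D4:**
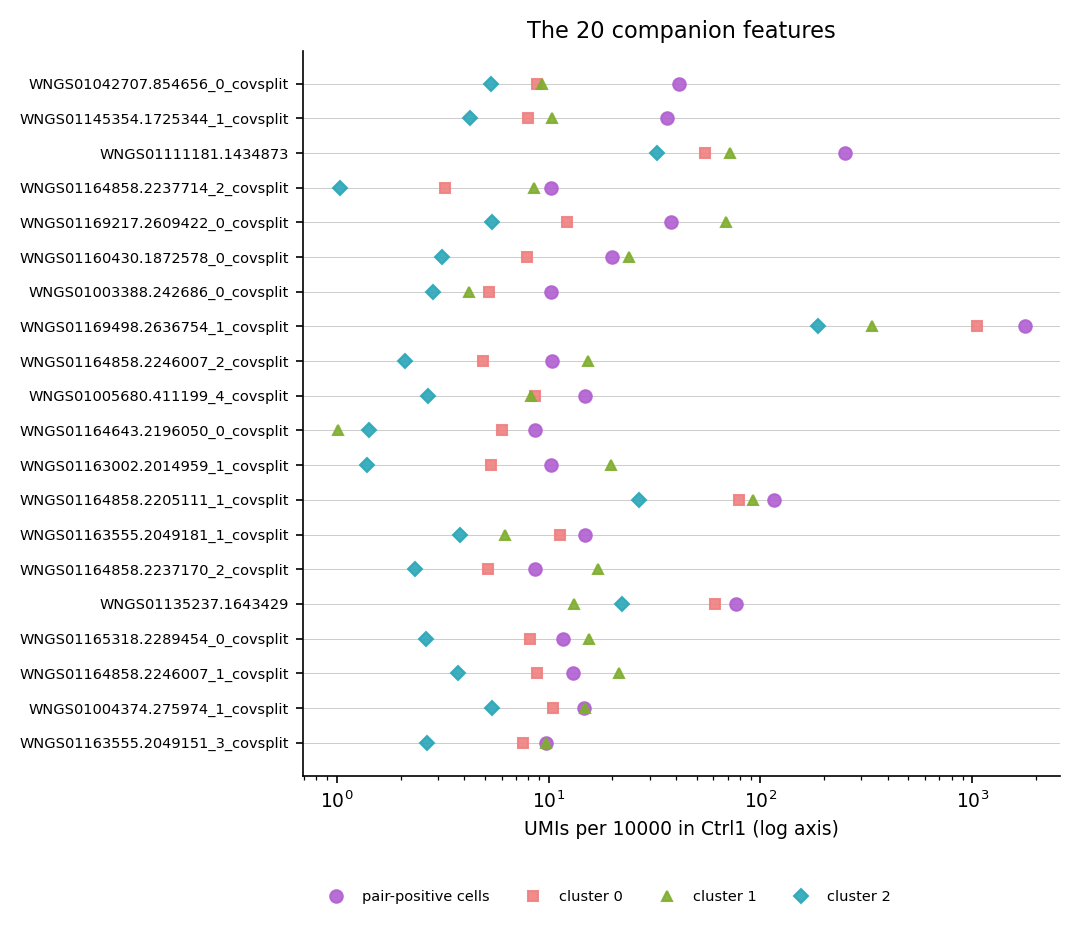
UMIs per 10000 in Ctrl1 (log axis) for the 20 companions, ordered by their log2 ratio, in the pair-positive cells and in clusters 0, 1 and 2 without their positive cells. The first 3 companions lie above all 3 clusters by at least 2-fold, while 8 of the 20 are higher in cluster 1 than in the positive cells.

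Over the whole profile the positive cells were nearest to cluster 0. Across the 140 features, the median absolute log2 difference in level was 0.64 from cluster 0, 0.75 from cluster 1 and 1.68 from cluster 2. There were 111 features within 2-fold of the positive cells in cluster 0, 89 in cluster 1 and 17 in cluster 2. The features of these counts include those that built the clusters, so the values describe the distance and do not test it.

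The feature that marks cluster 0, the counterpart of the semigranular cells in rank, was low in the positive cells. WNGS01021324.680489_28_covsplit was at 21.9 UMIs per 10000, against 81.0, 14.1 and 6.92 in clusters 0, 1 and 2, and was found in 46.6% of the positive cells and 68.2% of those of cluster 0. A further 6 of the 10 features with the lowest ratios were also lower than in cluster 0 and higher than in cluster 1. Of these, WNGS01004946.335539_1_covsplit differed most from cluster 0, at 5.43 against 36.7 per 10000, and was found in 14.8% and 61.9% of the cells. WNGS01001312.118487_1_covsplit, the most abundant of them, was at 103 against 325 per 10000.

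**Figure D5:**
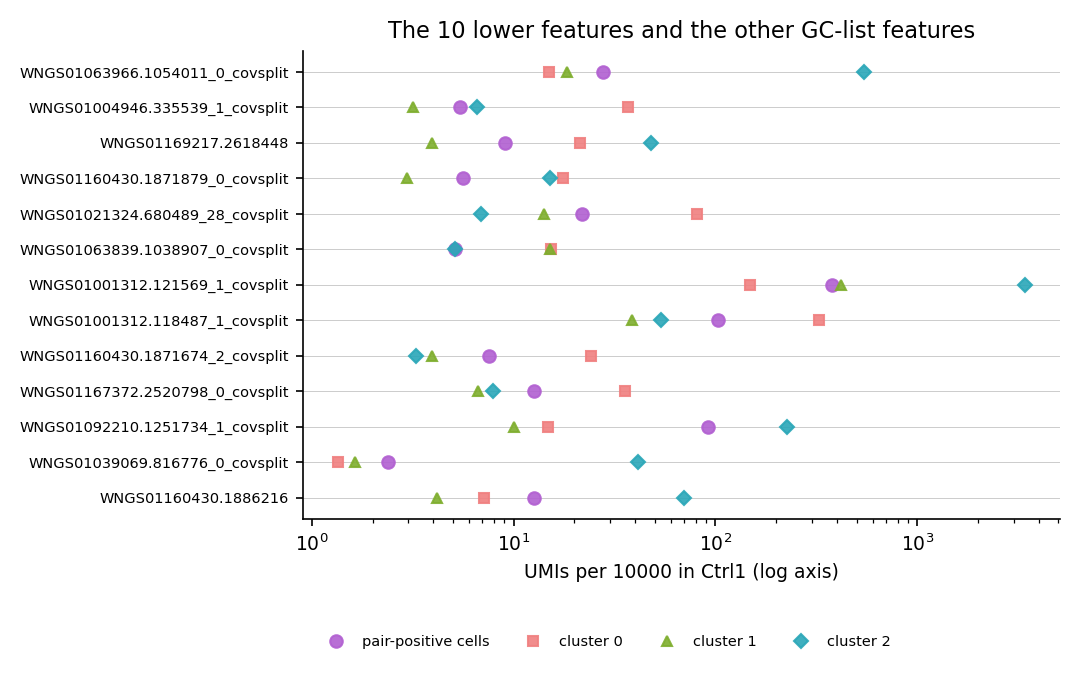
UMIs per 10000 in Ctrl1 (log axis) for the 10 features with the lowest ratio of pair-positive to other Ctrl1 cells, followed by the 3 features of the granular list that are not among them. WNGS01021324.680489_28_covsplit is at 21.9 in the positive cells and 81.0 in cluster 0, and all 5 features of the granular list lie between cluster 0 and cluster 2.

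The 5 features that led cluster 2, the counterpart of the granular cells in rank, were intermediate. Together they were at 515 UMIs per 10000 in the positive cells. Clusters 0, 1 and 2 had 186, 453 and 4317. All 5 were above cluster 0 and below cluster 2. WNGS01092210.1251734_1_covsplit stood out among them, at 92.3 per 10000 in the positive cells, and at 14.7, 10.0 and 227 in those clusters. It was found in 85.7% of the positive cells, against 22.5% of cluster 0 and 78.3% of cluster 2. WNGS01001312.121569_1_covsplit, the most abundant of the 5, was at 380 per 10000, against 148 and 3432 in clusters 0 and 2. WNGS01063966.1054011_0_covsplit, which led cluster 2, was at 27.8 against 14.9 and 546. None of the 189 positive cells had all 5 features and 27 had 4 of them (14.3%), whereas 81.2% of the cells of cluster 2 and 2.30% of those of cluster 0 had at least 4. Whether free RNA or doublets with cells of cluster 2 take part in these levels was not tested.

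Because cluster 2 is deep, it weighs heavily in sums over all other cells. WNGS01092210.1251734_1_covsplit had a log2 ratio of 0.54 to all other Ctrl1 cells by summed UMIs and of 1.73 with each cell weighted equally. For WNGS01001312.121569_1_covsplit the ratio was -1.29 by sums and -0.17 with equal weights. WNGS01163947.2108035_1_covsplit, among the 5 most abundant features at 239 per 10000, had -0.14 by sums and 0.81 with equal weights, so its direction depends on the weighting. The directions of all 20 companions and of the 10 lower features were the same under both.

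The 5 excluded features, which lead cluster 1 (the counterpart by rank of the HDNPs, hemocyte-derived neuronal precursors), were at 12.3 UMIs per 10000 in the positive cells, 9.47 in cluster 0 and 516 in cluster 1. The rule holds them low. A UMI of any of them was found in 34.4% of the positive cells, 23.3% of cluster 0 and 98.4% of cluster 1. The most abundant 5 features of the positive cells took 30.8% of their UMIs and 26.2% of those of the other cells, and 4 of these were also among the 5 most abundant of the other cells.

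The trio is also described along the share of the pair, although both the share and the trio come from the selection. The 189 cells were split into 4 groups of 47 or 48 by the share of the pair. The trio was at 215 UMIs per 10000 in the group with the lowest share and at 318, 373 and 408 in those that followed, while the median depth ranged from 302 to 320 UMIs. WNGS01169498.2636754_1_covsplit showed no such order, at 1824, 1858, 1792 and 1654 per 10000, nor did the granular list, at 613, 440, 471 and 528. The 148 cells with both features of the pair had the trio at 340 per 10000, and the 41 cells with 1 feature had it at 272. In the 48 other cells of cluster 3 it was at 149, and in cluster 0 at 71.9.

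The 4 positive cells outside Ctrl1 had lower levels of the companions than those of Ctrl1. The 2 cells of KD1 had 731 and 822 UMIs, with 5 and 6 UMIs of the pair. The 2 cells of KD3 had 352 and 498 UMIs, with 3 and 4 UMIs of the pair. WNGS01092210.1271482 was at 0 in all 4, and WNGS01145354.1725344_1_covsplit had 1 UMI in 1 of them. The trio was at 58.0 per 10000 (exact Poisson 95% interval 26.5 to 110) in the cells of KD1 and 52.9 in its other cells, and at 47.1 (12.8 to 120) in those of KD3 and 32.7 in its other cells. In Ctrl1 the positive cells had 327 per 10000. The upper bounds in KD1 and KD3 lie below that level. However, the trio had been picked for its height in the positive cells of Ctrl1, so this comparison is a description. Both intervals include the level of the other cells of the library. All 20 companions together were at 1314 per 10000 (1139.5 to 1507) in the cells of KD1 against 1097 in its other cells, and at 1235 (1010.4 to 1495.4) in those of KD3 against 1094. The lower bound in KD1 lay above the level of its other cells, but close to the 1138.9 of the KD1 cells without the pair. The interval leaves out the spread between the 2 cells, and 129 of their 204 companion UMIs came from 1 feature. The positive cells of both KD libraries were below the 2496 of those of Ctrl1, in which the companions had been chosen. The most abundant companion, WNGS01169498.2636754_1_covsplit, had 67 and 62 UMIs in the cells of KD1, and 87 and 0 in those of KD3. The granular list was at 2791 per 10000 in 1 cell of KD3 and at 150 to 341 in the other 3 cells. No library but Ctrl1 had 3 positive cells, so no test of the companions across libraries, and no test of KD against control cells within the positive cells, could be run.

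In the other libraries, cells with the pair had high levels of the granular list. Cells with at least 2 UMIs of the pair that did not meet the rule numbered 18 and 5 in Ctrl2 and Ctrl3, and 14, 6 and 11 in the KD libraries. Their UMIs of the pair were nearly all from WNGS01092210.1242857, with 1 UMI of WNGS01092210.1271499 in KD1 and 0 in the other libraries. All of these cells missed the minimum share, which a shallow cell with 2 UMIs of the pair cannot do, so the choice leaves out shallow cells. They were deep in some libraries, with a median of 3590.5 UMIs in Ctrl2 against 1140 over that library. The granular list was at 2092, 1273, 1861, 1528 and 2067 UMIs per 10000 in these cells of Ctrl2, Ctrl3, KD1, KD2 and KD3, against 319, 285, 224, 369 and 938 in the cells without the pair. These sums lean on the deepest cells, and in Ctrl3 a single cell held 8577 of the 11195 UMIs. Over single cells the median share of the granular list was 21.9%, 12.4%, 3.50%, 15.5% and 19.9% of the UMIs in the same order, and 0.951% to 1.53% in the cells without the pair. The median in KD1 was thus well below those of the other 4 libraries. The trio was not higher in them than in the cells without the pair in any of the 5 libraries, at 52.7 against 71.8 per 10000 in Ctrl2 and 15.6 against 33.8 in KD3, for example. In Ctrl1 the 12 such cells had a median share of the granular list of 9.11%, against 4.39% in the positive cells. The part of depth in these levels was not tested.

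Over all kept cells the level of the pair overlapped between the groups. It is given without a test, since the pair had been chosen from these counts. WNGS01092210.1242857 had a mean of 2.22 ± 2.70 UMIs per 10000 over the controls, and of 0.939 ± 0.674 over the KD animals (SD over 3 animals each). WNGS01092210.1271499 was at 0.646 ± 1.12 and 0.0344 ± 0.0205, and the sum differed by -1.89 per 10000. Without Ctrl1 all 3 differences changed sign, to 0.275, 0.0344 and 0.309 per 10000. In such sums over all cells, fewer cells of a kind and less RNA per cell cannot be told apart.

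The pair was also read from a fit over all features. In the quasi-likelihood test of edgeR on counts summed per animal, 0 of 7024 features passed an adjusted p of 0.05 (0.0%). The unadjusted p was under 0.05 for 120 of them. DESeq2, run without the filter of edgeR on low counts, called 0 of the 36517 features with a p-value. Of these, 257 had an unadjusted p under 0.05. Its own filter on low counts was left on. For both features of the pair even the unadjusted p-value of DESeq2 was missing, and which of its rules withheld it was not examined. WNGS01092210.1242857 had a log2 fold change of -2.19 in the KD animals (SE 1.13), which was 0.86 without Ctrl1. WNGS01092210.1271499 did not pass the filter of edgeR, and no p-value is given for either feature of the pair. Without the filter edgeR called 14 of 36576 features, all lower in the KD animals. WNGS01092210.1271499 was among them, with 351 of its 351 control UMIs in Ctrl1. It had been chosen from these counts, so its call describes the selection and is not a result on the groups.

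None of the companions passed the test over all cells. All 20 were tested and 0 were called, 4 of 20 had a higher and 16 a lower level in the KD animals, and their median log2 fold change was -0.26 against -0.04 over all features. Without Ctrl1, in which they had been chosen, 10 of 20 were higher. The trio split across the libraries. WNGS01145354.1725344_1_covsplit was at 8.36, 1.06 and 2.32 UMIs per 10000 in the controls, taken in order, and the KD libraries had 2.27, 1.48 and 0.472. WNGS01111181.1434873 was at 58.4, 40.2 and 23.2 across the controls, while the KD libraries had 17.3, 16.7 and 12.3 (log2 fold change -1.67, SE 0.92, edgeR adjusted p = 0.9997). How many of all features order the groups this way was not counted. WNGS01042707.854656_0_covsplit was lowest in Ctrl1, at 9.29, with 29.4 and 49.5 in the other controls. The KD libraries had 33.3, 67.4 and 19.98. A feature enriched in the positive cells of Ctrl1 was thus at a higher level in the cells at large of the 5 libraries that had 4 positive cells between them.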

How the data were processed

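Hemocytes of 3 control and 3 *Dnmt1* KD animals were loaded at about 10,000 cells per sample with 10X v3.1 chemistry. The authors deposited whole-number UMI counts of 72982 features in called cells, made with Cell Ranger (7.0.0 per the file headers, 4.0.0 in the submitters' processing notes, which also list Seurat 4.3.0). The genome build and annotation are not given in the sources used here, and the other deposited tables list features and barcodes. Cells with 100 to 2000 features were kept. The mitochondrial filter was not applied, since features are unnamed, and no doublet caller was run.

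The members and lists were chosen with earlier results of these data known. Named features were the 7 of the rule, the 20 companions, the 10 lowest features (among those in at least 25% of the other Ctrl1 cells), the 5 most abundant, those on WNGS01092210 in at least 10% of Ctrl1 members, and lists of 5 granular and 1 semigranular features. WNGS01092210.1243118 was added after its values were seen. Log2 ratios within Ctrl1 used summed UMIs with 1 UMI added to each side. Ctrl1 was clustered in Seurat 5.3.0 (scale factor 10000, 2000 variable features, 50 components, 9 dimensions, resolution 0.1).

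Counts were summed per animal and tested in R 4.3.3 with edgeR 4.0.16 (TMM, filterByExpr, Benjamini-Hochberg, quasi-likelihood) and DESeq2 1.42.0. The edgeR test was checked on simulated data with 200 changed features and a fixed spread between animals. That spread was not matched to these data, so the check does not show how many real changes the test could find. Exact intervals were computed in scipy 1.17.1. Exact permutation tests of the shares and of the pair levels are not given, since the pair was chosen from these counts. Alternatives covered thresholds of the rule, depth (seed 1), barcodes, resolution, normalization, filters, the replicate block and each animal left out. Closely related features could share reads.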

Additional observations from a re-analysis of the deposited data

Results flagged for a closer look

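Barcodes under the minimum of 100 features lie outside every comparison above, and they also held the pair. In Ctrl1, 55 of 2760 such barcodes met the rest of the rule, or 1.99% (exact 95% interval 1.505% to 2.59%, counting error only), with a median depth over all 2760 of 186 UMIs. Together the 2760 barcodes had 213 UMIs of WNGS01092210.1242857 and 77 of WNGS01092210.1271499. In KD2, 2 of 364 did so, with 19 and 0 UMIs. Ctrl2, Ctrl3, KD1 and KD3 had 0, over 5, 28, 13 and 139 barcodes. The control libraries Ctrl2 and Ctrl3 are too small here for a comparison.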

How the results depend on the processing

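The number of positive cells in Ctrl1 moved with the thresholds. It was 244 with at least 50 features and 72 with at least 150, 161 with at least 3 UMIs, 149 at a minimum share of 1%, 148 with both features required and 131 with cells thinned to 150 UMIs. The other 5 libraries together had 4, against 27 at 0.25%, 0 at 1% and 58 with no minimum share (an alternative added after seeing the data). The difference in share between groups was 0.114 percentage points within Ctrl2, Ctrl3, KD1 and KD2, and it ranged from -1.68 to 0.0989 when each animal was left out in turn. Within those 4 libraries, the levels of WNGS01092210.1242857, of WNGS01092210.1271499 and of their sum differed by 0.541, 0.0453 and 0.587 per 10000. With each animal left out in turn, these differences ranged from -2.10 to 0.275, from -0.935 to 0.0344 and from -3.03 to 0.309. In the fit over all features, the log2 fold change of WNGS01092210.1242857 was 0.74 within the 4 libraries and ranged from -2.74 to 0.86 with each animal left out. Without the filter on low counts 14 features were called. Of the cluster with most positive cells, these made up 79.2%, against 94.7% at resolution 0.05, 84.3% with 15 dimensions and 4.11% with the 7 features of the rule left out. With those left out and resolutions of 0.2 and 0.5 the values were 20.1% and 71.6%, and with 9 features left out 70.7% (the last 3 added after seeing the data). Replicate numbers did not pair the animals: same-numbered libraries had deviations that correlated at -0.171, 0.0897 and 0.104. With the replicate block 0 features were called, and the log2 fold change of WNGS01092210.1242857 was -0.30. Alternatives for the companions outside Ctrl1 were not run, since no such library had 3 positive cells. Depth limits what can be said of the other libraries, where a handful of cells decides each share.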
